A study of Mus musculus with 12 samples.

Results

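The data described here are the 6 arrays of TβRII-cKO back skin among the 12 arrays of the series, taken as 3 arrays of set 2 against 3 arrays of set 1 and paired by sorted fraction. The fractions were hair germ (HG), bulge and total keratinocytes (TK), with 1 array per fraction and set. The other 6 arrays, from TβRII-Het skin sorted and paired in the same way, were used only to show where the cKO set difference differed. All mice were untreated females of a mixed C57BL/6 and CD1 strain, aged 72 to 74 days, and Rosa26-YFP, P-cadherin and CD34 were the sort markers. Per the labels, set 1 stem cells (HG and bulge) were quiescent, set 2 cKO stem cells aberrantly quiescent and set 2 Het stem cells activated, with no state named for TK. TβRII is the type II TGF-beta receptor, encoded by Tgfbr2. The alleles behind the names Het and cKO, the promoter that drove recombination, the number of mice behind an array and whether the same mice gave all 3 fractions of a set were not given in the sources used here. What distinguishes set 2 from set 1, beside the named states, was not given either, so hair cycle stage, cohort and array processing cannot be told apart.

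The hair follicle cycles between rest (telogen) and growth (anagen). Stem cells sit in the bulge and in the hair germ below it, and growth starts when hair germ cells, and later bulge cells, divide. BMP signals hold these cells at rest, and TGF-beta signals from the dermal papilla oppose them. In a growing follicle the progeny form concentric layers, among them the inner root sheath, built on its own type I and type II keratins, and the hair shaft, built on hair keratins and keratin-associated proteins.

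Values are MAS5 signals on the log2 scale. Signals below the lower quartile of all arrays were raised to it, 4.37 on this scale and called the floor below, so that a difference from a floored value is a lower bound. Differences are set 2 minus set 1, and 1 unit is a 2-fold change. The main test, limma with fraction as a block, was run on 12233 genes and its spread is that between fractions, not between mice. Each SE below is limma's moderated standard error, which draws on the spread of other genes, not that of the 3 differences alone. Cd34, the bulge sort marker, had levels of 14.42 and 14.50 on the bulge arrays of sets 1 and 2, against 8.21 to 10.83 on the other 4 arrays. Cdh3, which encodes P-cadherin, had levels of 9.74 and 9.22 in HG, 8.31 and 8.02 in bulge, and 9.33 and 9.54 in TK, so it set HG apart from bulge but not from TK. Tgfbr2 itself had levels of 12.02, 12.14 and 12.09 in set 1 HG, bulge and TK and of 11.31, 11.89 and 11.78 in set 2. Whether its probe set lies in a deleted part was not known, so this checks no label. The median signal of the 6 arrays ran from 66.3 to 108.7, lowest on the TK array of set 2. The ratio of 3′ to 5′ signal of the actin control probe sets, a sign of RNA quality, ran from 2.76 to 7.95 and was lower in set 2 than in set 1 in bulge and TK but not in HG. The same ratio of the Gapdh control probe sets was lower in set 2 in all 3 fractions. Its values in sets 1 and 2 were 2.07 and 1.77 in HG, 2.66 and 1.49 in bulge, and 1.47 and 1.08 in TK. The TK array of set 1 stood apart by milk protein genes, given below.

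Inner root sheath keratins were the main gain shared by the 3 fractions of cKO set 2. By limma at an adjusted p under 0.05, 7 genes rose (0.0572% of those tested) and 6 fell (0.0490%). Of the 7, 4 encode inner root sheath keratins (Krt25, Krt27, Krt28 and Krt71) and 1 a hair shaft keratin (Krt35). The other 2 were Gjb2, which encodes connexin 26, a gap junction protein, and Zfp874a, a zinc finger gene. Testing required 2 or more arrays above the pooled median, 6.40 on the log2 scale. Krt25, Krt71 and Zfp874a met this through set 2 alone, where they were high, so their calls depend on that filter. Without the filter 0 genes were called. The fallers were Gt(ROSA)26Sor and 5 genes expressed in connective tissue (Scara5, Pcolce, Tnxb, Col1a1 and Lum). Without the adjustment 1541 genes had a p under 0.05.

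Krt25, Krt27 and Krt28 encode type I keratins and lie close together on chromosome 11, with Krt26 between Krt25 and Krt27. Krt71 encodes a type II keratin that pairs with them and lies beside Krt74, Krt72 and Krt73 on chromosome 15. The 250 bases before the start of these 4 genes are shown because the genes moved together in all 3 fractions. They are RefSeq sequences of build GRCm38.p6, on the minus strand, at chr11:99322952-99323201, chr11:99351119-99351368, chr11:99374904-99375153 and chr15:101743098-101743347. Capitals mark TATAAA, the letters of a TATA box, searched on both strands.
Krt25: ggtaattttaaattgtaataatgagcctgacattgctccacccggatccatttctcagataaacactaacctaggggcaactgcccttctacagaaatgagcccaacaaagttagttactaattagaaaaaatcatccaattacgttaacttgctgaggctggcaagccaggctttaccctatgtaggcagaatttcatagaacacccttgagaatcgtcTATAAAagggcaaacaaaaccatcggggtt
Krt27: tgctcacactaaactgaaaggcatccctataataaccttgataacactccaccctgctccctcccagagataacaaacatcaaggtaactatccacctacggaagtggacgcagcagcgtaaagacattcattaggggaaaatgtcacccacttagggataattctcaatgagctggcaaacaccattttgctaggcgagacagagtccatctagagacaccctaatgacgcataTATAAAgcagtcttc
Krt28: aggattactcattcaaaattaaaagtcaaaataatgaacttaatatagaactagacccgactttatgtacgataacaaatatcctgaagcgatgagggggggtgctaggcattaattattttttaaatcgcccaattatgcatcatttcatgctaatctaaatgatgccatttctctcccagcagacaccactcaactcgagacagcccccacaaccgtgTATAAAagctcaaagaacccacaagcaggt
Krt71: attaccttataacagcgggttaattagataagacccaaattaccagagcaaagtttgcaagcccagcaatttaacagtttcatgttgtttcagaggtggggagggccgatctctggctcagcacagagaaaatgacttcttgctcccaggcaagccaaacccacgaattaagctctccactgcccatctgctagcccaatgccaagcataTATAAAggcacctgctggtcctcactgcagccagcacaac
Each of the 4 held 1 match, which began 30 bases before the start in Krt25 and Krt28, 15 before it in Krt27 and 40 before it in Krt71. Of 32851 windows of this length before RefSeq gene starts, 12.4% held the letters on either strand. A match is a description of letters, not a measured site.

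Krt25 stood at the floor of 4.37 on all 3 arrays of set 1. In set 2 its level was 9.47 in HG, 10.38 in bulge and 10.05 in TK. The groups did not overlap, and the mean difference was at least 5.59 ± 0.35 (limma SE, 3 pairs), or at least 48.2-fold, with a limma adjusted p of 1.55e-04. Krt25 entered the test through set 2 alone, and without the filter its limma adjusted p was 0.566.

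Krt28 had levels of 7.73, 5.46 and 6.84 in set 1 HG, bulge and TK, and of 9.58, 9.35 and 9.44 in set 2. The set 2 arrays were nearly level with each other, while in set 1 the HG array was highest and the bulge array lowest. The mean difference was 2.78 ± 0.36 (SE), with a limma adjusted p of 0.0170.

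Krt71 had levels of 5.34, 6.02 and 5.28 in set 1 and of 7.94, 8.90 and 8.42 in set 2, in the same order of fractions. Krt27 had levels of 6.55, 5.71 and 5.90 in set 1 and of 8.19, 8.83 and 8.67 in set 2. Neither gene overlapped between sets. Their mean differences were 2.88 ± 0.36 and 2.51 ± 0.37 (SE), with limma adjusted p of 0.0140 and 0.0396. Krt71 met the filter through set 2 alone, and without the filter the limma adjusted p of each was 0.566.

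Krt35, a type I keratin of the hair shaft cuticle and matrix, had levels of 7.25, 4.37 (the floor) and 5.88 in set 1 and of 9.55, 7.81 and 9.48 in set 2. The difference was 3.11 ± 0.36 (SE), with a limma adjusted p of 0.0114, and was smallest in HG at 2.29. Gjb2 had levels of 8.37, 6.84 and 7.46 in set 1 and of 10.99, 10.25 and 10.84 in set 2. Its difference of 3.14 ± 0.23 (SE) had a limma adjusted p of 3.10e-04. Its chromosomal partner Gjb6, connexin 30, differed by 0.77, 0.96 and 0.76 in HG, bulge and TK, with an adjusted p of 0.269 in the same limma test. Of 5 connexin genes tested, Gjb2 was the only 1 past the threshold.

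**Figure D1:**
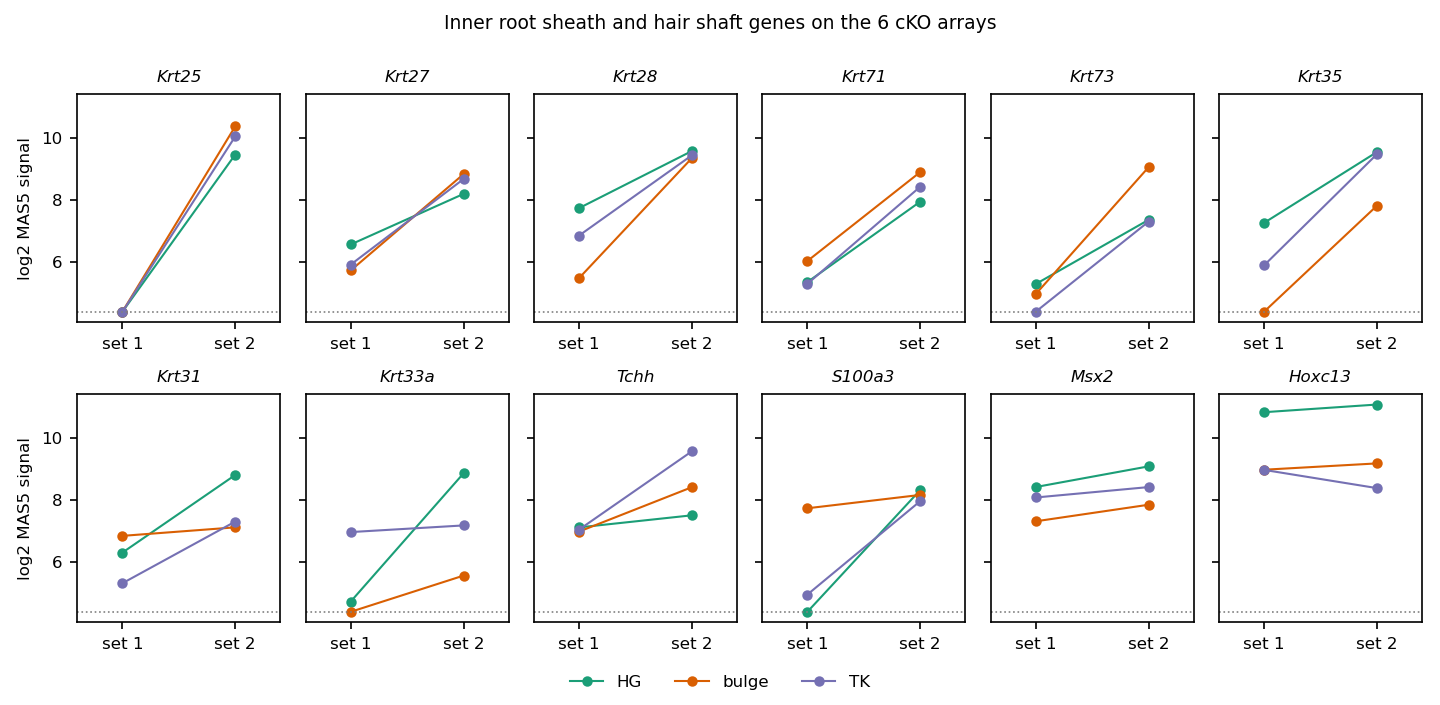
Log2 MAS5 signal of 12 inner root sheath and hair shaft genes on the 6 cKO arrays, set 1 at left and set 2 at right of each panel, with 1 line per fraction (HG green, bulge orange, TK purple) and the floor of 4.37 dotted. Krt25 goes from the floor to between 9.47 and 10.38 in all 3 fractions, Krt33a gains 4.15 in HG but 0.22 in TK, and Hoxc13 stays within 0.59 in each.

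The wider list of hair shaft and inner root sheath genes held 26 measured genes, of which 20 were bright enough to be tested. Of these 5 rose and none fell. Since 4 of the 20 (Krt25, Krt34, Krt71 and Krt73) exceeded the pooled median in set 2 alone, counts are given over all 26 as a description. Of the 26, 12 were higher in set 2 in all 3 fractions (14.2% of all tested genes were), and the median difference was 0.86, with 1.03 in HG, 0.48 in bulge and 0.27 in TK. Over the 20 it was 1.53, and 0.71 with the floor at the pooled median. Krt73, a type II inner root sheath keratin, differed by 2.08, 4.11 and 2.92, with a limma adjusted p of 0.0744. Tchh, which encodes trichohyalin of the inner root sheath and medulla, differed by 0.39, 1.44 and 2.54. Of the list's transcription factors, Hoxc13 differed by 0.25, 0.20 and -0.59 and Msx2 by 0.67, 0.54 and 0.34. Foxn1 differed by -0.48, -1.17 and 0.33 and was among the lower genes limited to bulge by the rule given below. Krt26 was at the floor on all 6 arrays. The 5 calls became 2 without the bulge pair, 7 without the HG pair and 9 without the TK pair. They became 1 with the spread of all 12 arrays, with the floor at the pooled median, without a variance trend or without the block, 2 with the filter at the pooled 75th percentile and 0 without a filter.

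In Het skin the 20 tested genes had median set differences of 3.91 in HG, 0.35 in bulge and 3.42 in TK. Krt25 differed there by 7.06, 3.61 and 7.12 in HG, bulge and TK, Gjb2 by 5.15, 3.16 and 4.71, and Krt28 by 5.21, 2.54 and 5.33. The test of the cKO set difference against the Het one, on 12 arrays and 12749 genes, called none of the list's genes. For Krt25 the cKO difference minus the Het difference was -0.34 and for Gjb2 it was -1.20, with limma adjusted p of 0.976 and 0.817.

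Genes of proliferation and of BMP signalling were measured beside these. Of 24 mitosis genes tested none was called, and 8 were higher in all 3 fractions, where 14.2% of all tested genes were. Their medians were 0.58 in HG, 0.23 in bulge and 0.32 in TK, against 1.78, 0.93 and 1.23 in Het skin. Mki67, the proliferation marker Ki-67, differed by 0.09, -0.49 and -0.22. Of 11 BMP response genes tested none was called, and 9 were higher in all 3 fractions, where 14.2% of all tested genes were. The median was 0.51, with 0.86 in HG, 0.33 in bulge and 0.38 in TK, against 1.38, 0.08 and 0.89 in Het skin. Id1 and Id3, direct targets of BMP signalling, differed by 1.01, 0.16 and 1.54 and by 1.21, 0.33 and 0.97, with limma adjusted p of 0.235 and 0.197. In Het skin Id1 differed by 0.67, 0.06 and 0.49 and Id3 by 1.31, 0.61 and 0.94.

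**Figure D2:**
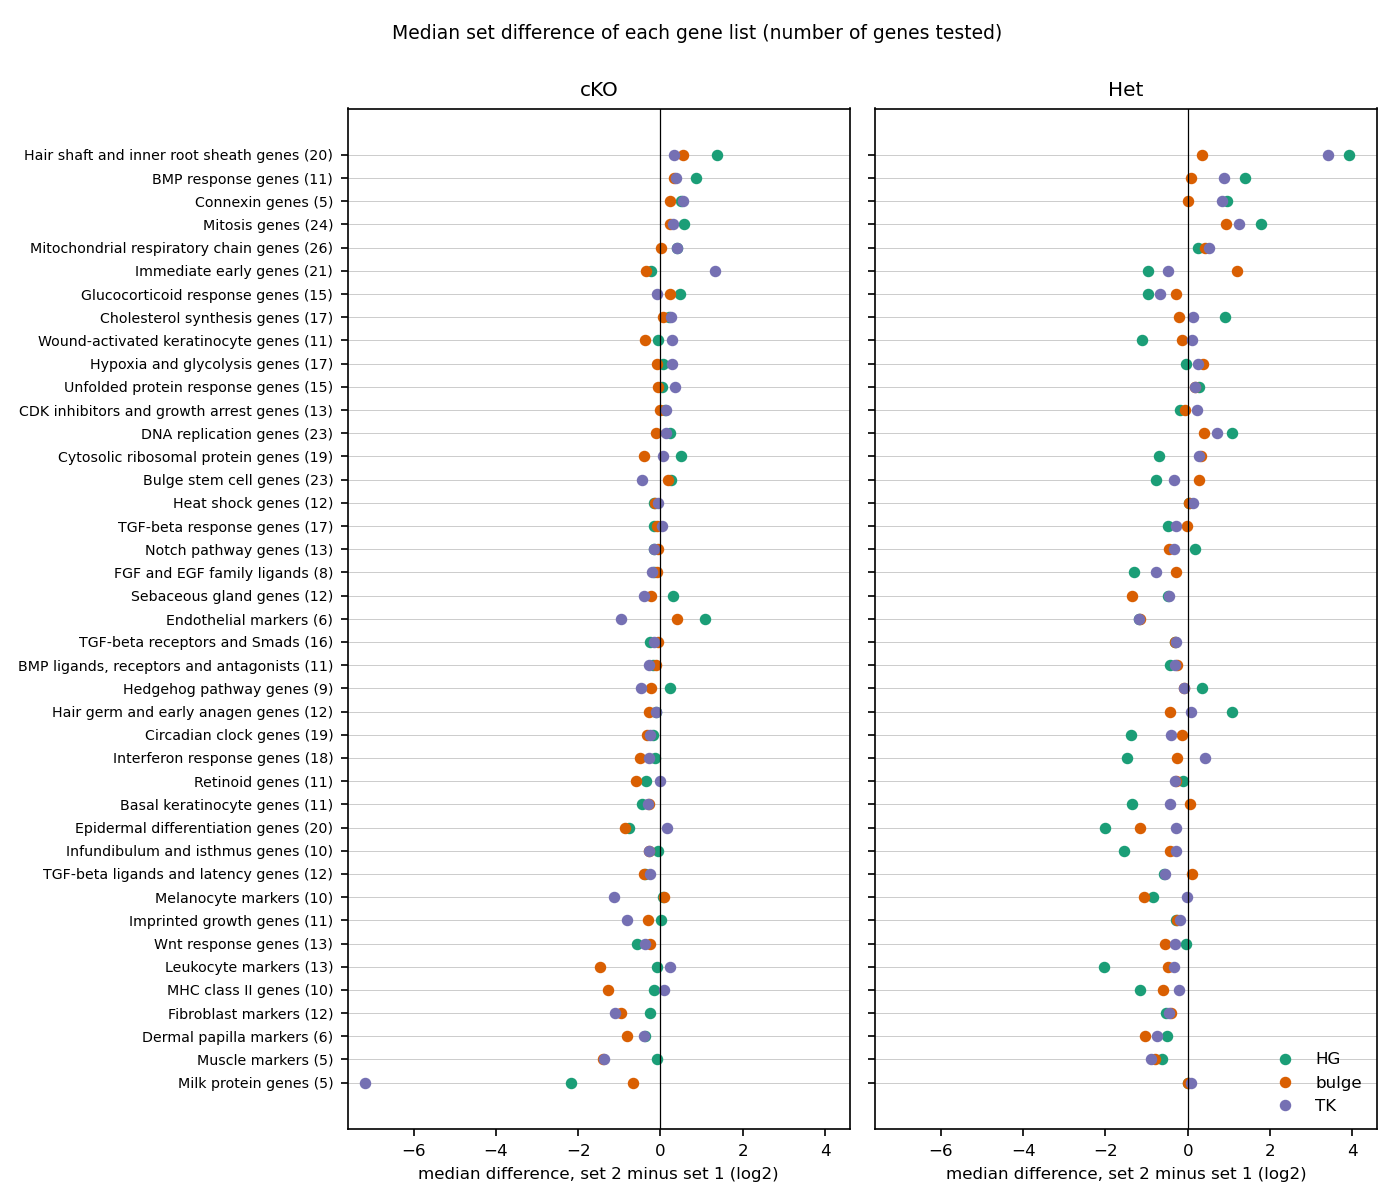
Median set difference (log2, set 2 minus set 1) of each gene list with at least 5 genes tested, for cKO (left) and Het (right), with 1 point per fraction (HG green, bulge orange, TK purple) and the number of genes tested in brackets. The 20 tested hair genes have medians of 1.37, 0.54 and 0.33 in cKO and of 3.91, 0.35 and 3.42 in Het, milk protein genes reach -7.18 in cKO TK, and immediate early genes reach 1.33 there.

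Among the genes that passed the test the largest fall was that of Gt(ROSA)26Sor, the transcript of the Rosa26 locus, where the YFP reporter used in the sort is placed. Its levels were 9.58, 8.89 and 9.24 in set 1 HG, bulge and TK and 5.32, 6.65 and 5.74 in set 2. The difference of -3.33 ± 0.39 (SE) had a limma adjusted p of 0.0114. In Het skin it differed by -1.23, -0.61 and 0.02, and the difference between genotypes, -2.72, had an adjusted p of 0.425 in the 12-array limma test. The gene was read by a single probe set.

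Connective tissue genes made up the other 5 that fell. Col1a1, the main chain of type I collagen, had levels of 9.77, 13.35 and 10.30 in set 1 HG, bulge and TK and of 8.30, 11.87 and 9.21 in set 2. The bulge arrays were the highest of each set, and the fall was close to even, at -1.47, -1.48 and -1.09. Pcolce, which encodes an enhancer of procollagen cleavage, fell by 1.79, 1.48 and 1.38. Lum, the collagen-binding proteoglycan lumican, fell by 1.04, 1.08 and 1.84, and Tnxb, the matrix protein tenascin-X, by 1.75, 1.68 and 1.12. Scara5, a ferritin receptor, fell by 1.65, 1.22 and 2.28. Limma adjusted p ran from 0.0114 for Pcolce and Tnxb to 0.0338 for Lum. In Het skin Scara5 differed by -2.01, -1.33 and -2.18, Lum by -1.44, -1.23 and -0.98, and Tnxb by -3.09, -0.87 and -1.49. Pcolce differed there by -0.55, -0.42 and -1.05 and Col1a1 by -0.52, 0.29 and -0.97. In the 12-array limma test of cKO against Het the 5 genes had adjusted p of 0.764 or more.

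All 12 fibroblast markers of the list were tested; 2 fell (Col1a1 and Lum), none rose and 7 were lower in all 3 fractions, where 21.4% of all tested genes were. Their median difference was -0.25 in HG, -0.97 in bulge and -1.10 in TK, against -0.53, -0.41 and -0.46 in Het skin. The markers' mean level was 9.53 and 9.23 in HG, 12.63 and 11.76 in bulge, and 10.01 and 8.90 in TK of sets 1 and 2. Dcn, the proteoglycan decorin, had levels of 16.21 and 15.63 in bulge, and differed by -0.20 in HG and -0.96 in TK. Fewer fibroblasts in the sort and less of these transcripts per cell cannot be told apart in bulk RNA, and the part of carried-over cells in the falls was not tested. The 2 calls became 4 without the HG pair or without the TK pair, and 0 without the bulge pair, with the spread of all 12 arrays, with the higher floor, without the filter, without a trend or without the block. They became 1 with the mean of all probe sets.

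**Figure D3:**
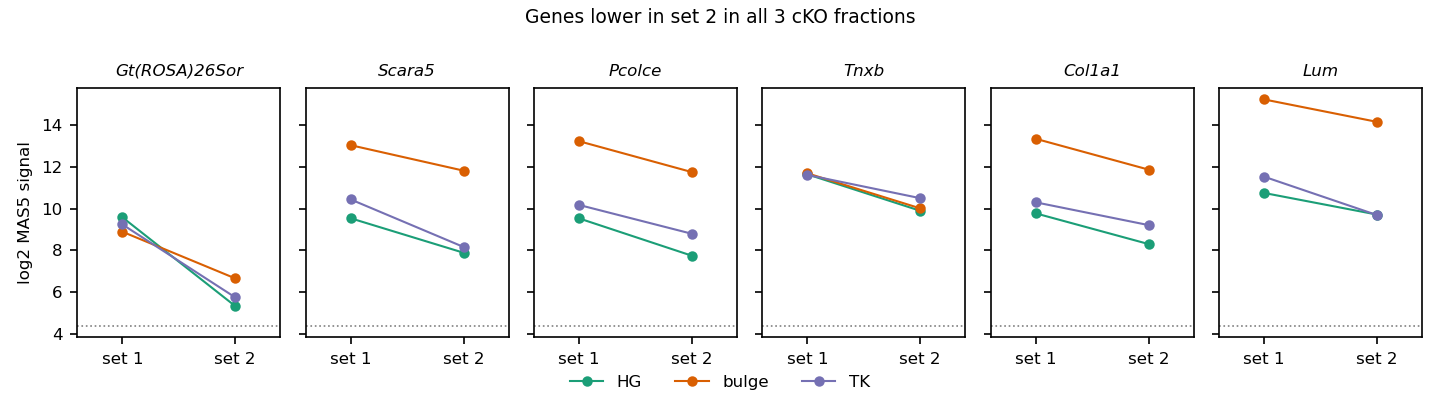
Log2 MAS5 signal of the 6 genes that fell in cKO set 2, set 1 at left and set 2 at right of each panel, with 1 line per fraction (HG green, bulge orange, TK purple). The lines slope down in all panels, with differences of -4.26, -2.24 and -3.50 for Gt(ROSA)26Sor and of -1.84 to -1.04 for Lum, and the bulge arrays are the highest for Scara5, Pcolce, Col1a1 and Lum.

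By size alone, 16 genes were at least 2-fold higher in all 3 fractions (0.147% of 10913 genes whose brighter array exceeded the pooled median in every fraction), 24 were at least 2-fold lower (0.220%) and another 16 passed 2-fold with mixed directions (0.147%). The 16 higher genes included all 7 called ones, and the 24 lower genes all 6. In Het skin the same rule gave 56 higher (0.516%), 117 lower (1.08%) and 20 mixed genes (0.184%). Krtap8-1, a keratin-associated protein of the hair shaft, was among the 16, with differences of 6.09, 1.99 and 3.54, and Cmah, which encodes a sialic acid hydroxylase, with 1.62, 1.76 and 2.83. Among the 24, Slit2, a guidance ligand, differed by -1.52, -1.35 and -2.81 and Myh11, smooth muscle myosin, by -1.78, -1.41 and -3.11. For Cmah, Slit2 and Myh11 dimmer probe sets differed in the other direction in at least 1 fraction. No dimmer probe set of Cmah was 2-fold higher in all 3 fractions. Across genes the set differences of cKO correlated at r = 0.31 between HG and bulge, 0.17 between HG and TK and 0.13 between bulge and TK (10913 genes, which are not independent). In Het skin the same values were 0.32, 0.56 and 0.43 over 10857 genes.

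**Figure D4:**
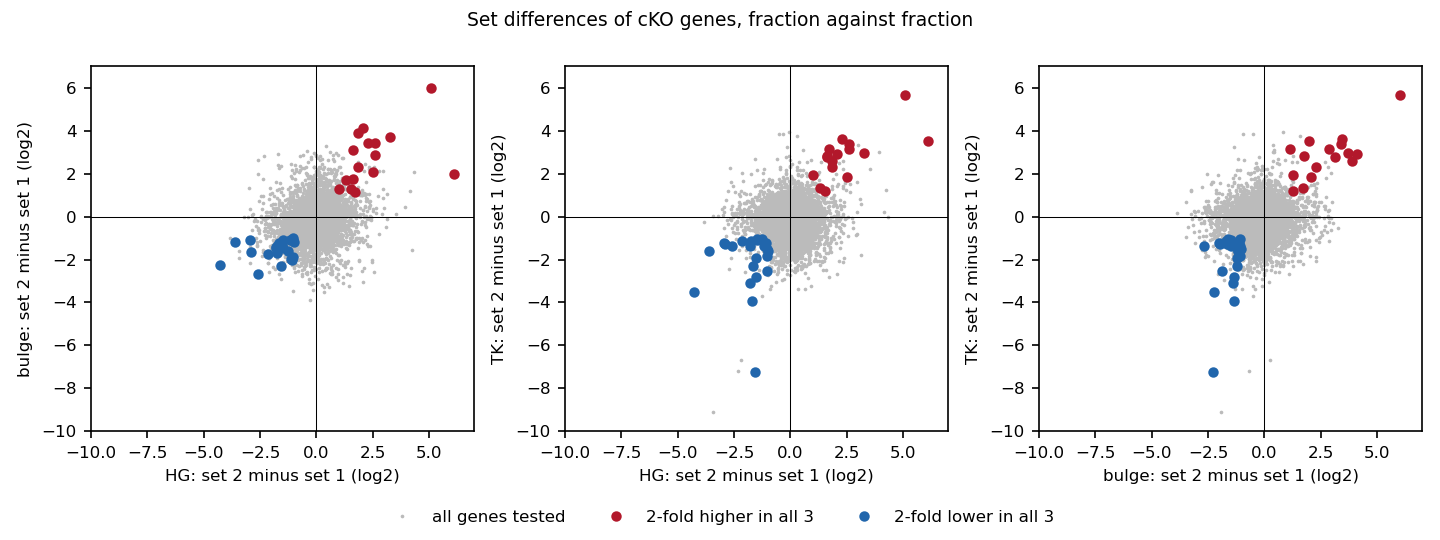
Set difference (log2, set 2 minus set 1) of every tested gene in one cKO fraction against another (grey), with the 16 genes at least 2-fold higher in all 3 fractions in red and the 24 at least 2-fold lower in blue. The grey cloud is loosely related between fractions. Over the 10913 genes whose brighter array exceeded the pooled median in every fraction, r was 0.31, 0.17 and 0.13. Krt25 is the red point above 5 on both axes of each panel, and the lowest points on the TK axis are milk protein genes.

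Other differences were limited to a single fraction, meaning at least 2-fold there and under 0.5 either way in both others. In HG 494 genes were at least 2-fold higher (4.10% of 12059) and 560 lower (4.64%), of which 107 (0.887%) and 124 (1.03%) were limited to it. In bulge 446 were higher (3.51% of 12712) and 1118 lower (8.79%), of which 109 (0.857%) and 279 (2.19%) were limited to it. In TK 254 were higher (2.23% of 11400) and 660 lower (5.79%), of which 63 (0.553%) and 215 (1.89%) were limited to it. The 2-fold criterion chose these genes, so their sizes carry no test. Testing a fraction's difference against the other two leaves 1 residual degree of freedom. That limma test called 0 genes for HG (467 at an unadjusted p under 0.05) and 0 for bulge (463). For TK it called 305 genes (2.49%), 119 higher (0.973%) and 186 lower (1.52%). With the spread of all 12 arrays, without a variance trend or without the filter on dim genes the TK count was 0, so TK genes are given below by their values.

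In HG, genes of keratin-associated proteins, the matrix of the hair shaft, held several of the largest differences. The family was picked after its values were seen, and over its 38 measured genes the median difference was 0.15 in HG, 0.04 in bulge and 0.00 in TK. In HG, bulge and TK, 15, 7 and 5 of them had a brighter array above the pooled median. Of these, 14, 2 and 2 were at least 2-fold higher in set 2. The shares over all genes that bright were 4.10%, 3.51% and 2.23%. At least 2-fold lower were 0, 2 and 1 of the family. Only 2 of the 38 exceeded the pooled median on the HG array of set 1, so the brightness required by the 2-fold rule was met mostly through set 2, and the count is a description. Krtap16-3 had a level of 7.32 on the HG array of set 2 and stood at the floor of 4.37 on the other 5 arrays. Krtap6-5 had a level of 7.84 there and of 4.37 to 5.49 elsewhere. Hair keratins gave the same order in part: Krt33a differed by 4.15 in HG, 1.17 in bulge and 0.22 in TK, and Krt31 by 2.51, 0.28 and 2.00.

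Others limited to HG were, on the gaining side, Slc38a5, an amino acid transporter, which went from 4.54 to 7.53 in HG and was at the floor in bulge and TK. C1qa, a complement subunit made by macrophages, had a level of 7.18 in set 1 HG and stood at the floor in set 2, with levels of 7.14 to 7.57 on the other 4 arrays. Fam43a had a level of 7.77 in set 1 HG and 4.54 in set 2, and Epn3, an endocytic adaptor, went from 7.39 to the floor.

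In bulge, leukocyte genes were lower in set 2. Of 13 leukocyte markers tested, 10 were at least 2-fold lower in the bulge pair, where 8.79% of all genes were, against 0 in HG and 0 in TK. Their median difference was -1.46 in bulge, -0.08 in HG and 0.23 in TK. With quantile normalization the HG median was 0.05, and the sign of the bulge and TK medians stayed. The Het medians of these markers were also below 0, at -0.49 in bulge, -2.04 in HG and -0.33 in TK. The mean level of the 14 measured markers was 7.60 on the bulge array of set 2 and 8.71 to 9.31 on the other 5 arrays. In the limma test of bulge against the other fractions no gene of the array passed, and the smallest adjusted p was 0.985.

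Ptprc, the pan-leukocyte marker CD45, had levels of 9.66 and 8.20 in bulge, 9.90 and 9.95 in HG, and 9.56 and 9.19 in TK of sets 1 and 2. Tyrobp, an adaptor of myeloid and NK cells, differed by -1.73 in bulge, -0.08 in HG and 0.11 in TK, and Cd3g of T cells by -1.15, 0.32 and 0.62. MHC class II genes, which present peptides on antigen-presenting cells, had the same uneven pattern. Of 10 tested, 8 were at least 2-fold lower in bulge, where 8.79% of all genes were, against 0 in HG and 0 in TK. H2-Ea, described below, went the other way, by 4.33 in HG and 2.08 in bulge. The list's medians were -1.28 in bulge, -0.15 in HG and 0.08 in TK, and in Het skin -0.60, -1.17 and -0.22 in the same order. Cd74, the invariant chain, had levels of 11.03 and 9.07 in bulge against 10.21 and 10.04 in HG and 11.22 and 11.46 in TK. H2-DMb2, a peptide loading chain, went from 8.26 to the floor in bulge and had levels of 7.80 to 8.27 elsewhere. Fewer leukocytes and less of these transcripts per cell were not separated.

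The largest gains limited to bulge included genes that rested at or near the floor in set 1. Elmo1, a regulator of Rac in cell migration, went from 4.37 to 7.20 in bulge and had levels of 6.51 to 7.31 elsewhere. B3gnt8, a glycosyltransferase, went from 4.40 to 7.26 and had levels of 7.82 to 8.33 elsewhere. In these and in Tmem121, Pm20d1, Arhgap22 and Cthrc1 the bulge array of set 1 was the low array. Dlgap5, a mitotic spindle protein, went the other way, from 7.58 to the floor, with levels of 7.25 to 7.73 elsewhere. Kif20a and Kif4, which encode mitotic motor proteins, were limited to bulge and higher, by 2.33 and 2.31. Of the 24 mitosis genes tested, 3 were at least 2-fold higher in bulge (3.51% of all genes were) and 0 lower (8.79%).

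HG and bulge shared lower levels of epidermal differentiation genes that TK did not have. Of 20 tested none was called in the main test. Their median difference was -0.76 in HG, -0.87 in bulge and 0.16 in TK. Lor, the cornified envelope protein loricrin, had levels of 10.91 and 8.81 in HG, 10.57 and 8.66 in bulge, and 10.19 and 10.43 in TK of sets 1 and 2. Krt1, the suprabasal keratin, differed by -1.33, -1.52 and 0.16, and Lce1m, a late envelope protein, by -2.94, -2.15 and 0.44. Flg, filaggrin, had levels of 7.22 and 5.23 in HG, 6.65 and 5.18 in bulge, and 6.46 and 7.08 in TK. In Het skin the list's medians were -2.01 in HG, -1.16 in bulge and -0.28 in TK.

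In TK, immediate early genes, the transcripts that cells induce within minutes of a stimulus, were higher in set 2. Of 21 tested, 12 were at least 2-fold higher in TK, where 2.23% of all genes were, against 0 in HG and 1 in bulge. The medians were 1.33 in TK, -0.24 in HG and -0.34 in bulge. Atf3, a stress-induced transcription factor, had a level of 14.17 on the TK array of set 2 and of 9.79 to 10.76 on the other 5 arrays. Nr4a1, a nuclear receptor, had a level of 12.90 there and of 7.88 to 9.47 elsewhere. Fosb, Junb, Btg2 and Zfp36 differed in TK by 2.67, 2.05, 2.78 and 2.22, and in HG and bulge by values from -1.17 to -0.03. Egr2, Egr3 and Maff did not share this and differed in TK by -0.07, -0.11 and 0.07. In Het skin the medians were -0.98 in HG, 1.21 in bulge and -0.47 in TK.

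Milk protein genes were high on a single array, TK of set 1. Csn2, beta-casein, had a level of 13.46 there, of 7.80 and 6.29 in set 1 HG and bulge, and stood at the floor on all 3 arrays of set 2. Wap, whey acidic protein, had a level of 12.37 there and of 4.41 to 6.18 on the other 5 arrays. The mean over the 9 measured genes was 10.79 on that array and 4.77 to 5.80 on the others. The largest falls in TK therefore come from this array. Leaving out the TK pair left all 13 genes of the main test past the threshold, among 603 called. That fit called far more genes than the main test, so it cannot show whether the 13 rested on the TK pair. Without the HG pair all 13 stayed past the threshold, among 84 called, and without the bulge pair 4 did, among 6.

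Melanocyte markers were also lower in set 2 TK, while 10 of the 13 leukocyte markers were higher there. The leukocyte median in TK was 0.23, against -0.06 over all tested genes. Of 10 melanocyte markers tested, 7 were at least 2-fold lower in TK, where 5.79% of all genes were, and 0 in HG and 0 in bulge. Their medians were -1.14 in TK, 0.07 in HG and 0.08 in bulge. In Het skin the medians were -0.03 in TK, -0.85 in HG and -1.06 in bulge. Dct, a melanin synthesis enzyme, had levels of 10.70 and 8.87 in TK of sets 1 and 2, 13.08 and 13.46 in HG, and 9.79 and 9.92 in bulge. The median of 6 dim endothelial markers was -0.97 in TK, 1.08 in HG and 0.41 in bulge, and -0.37, 0.48 and 0.30 with the floor at the pooled median. Fabp4, a fatty acid carrier of fat cells and capillaries, differed by 2.34 in HG, 1.05 in bulge and -2.11 in TK. Lipe, a lipase and the other adipocyte marker tested, differed by 0.97, 0.48 and 1.63.

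**Figure D5:**
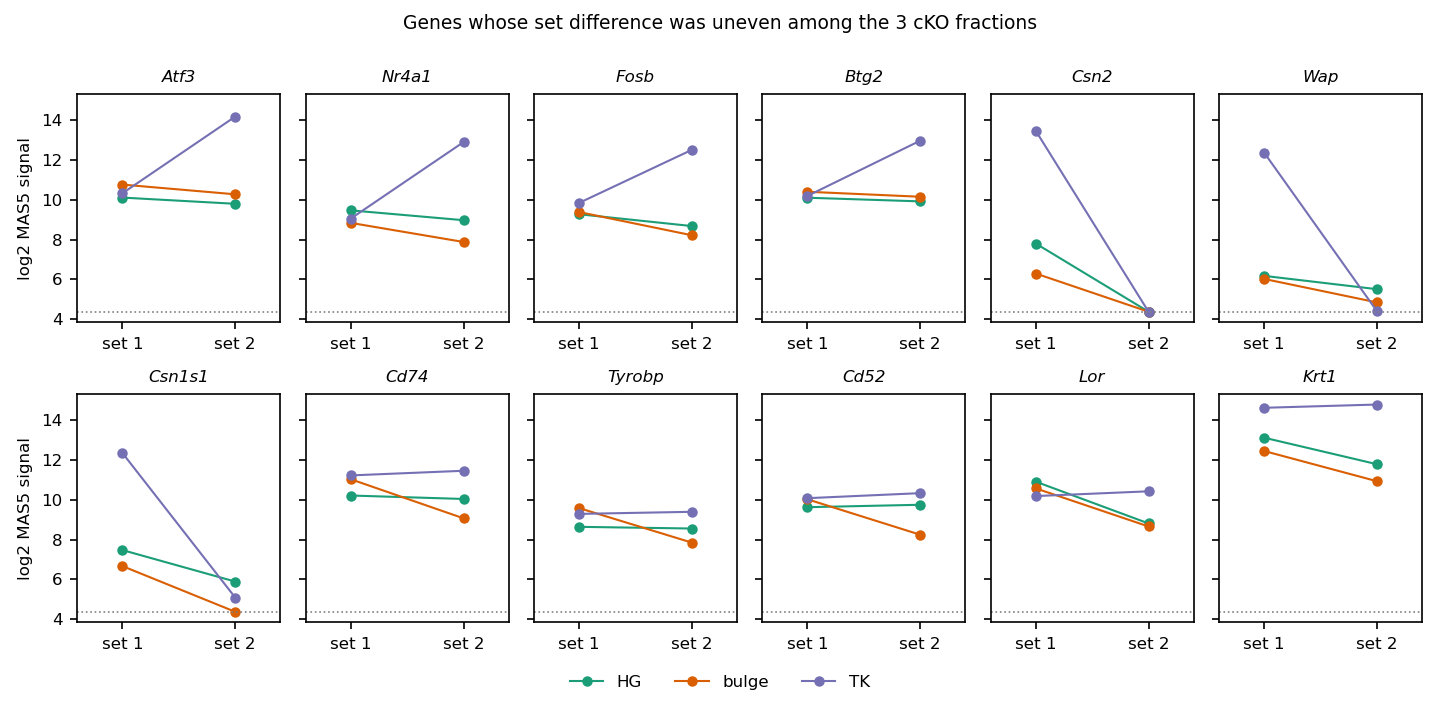
Log2 MAS5 signal of 12 genes with uneven set differences, set 1 at left and set 2 at right of each panel, with 1 line per cKO fraction (HG green, bulge orange, TK purple) and the floor of 4.37 dotted. Atf3 and Nr4a1 climb only on the TK line, to 14.17 and 12.90, Csn2 and Wap drop from 13.46 and 12.37 on the TK line, Cd74 drops on the bulge line, and Lor drops on the HG and bulge lines.

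The test of the cKO set difference against the Het one called 2 genes higher (0.0157% of 12749) and 0 lower, with 784 at an unadjusted p under 0.05. Zfp874a had levels of 4.87, 4.58 and 4.37 (the floor) in cKO set 1 HG, bulge and TK and of 8.13, 8.31 and 7.32 in set 2. In Het skin it differed by -1.39, -1.32 and -2.41, so every pair of the 2 genotypes went in opposite directions. The cKO difference minus the Het difference was 5.01, with a limma adjusted p of 0.00313. H2-Ea, an MHC class II chain, had levels of 4.37 and 8.70 in cKO HG, 5.24 and 7.32 in bulge, and the floor on both TK arrays. It differed by -5.79, -6.63 and -5.84 in Het skin, and the difference between genotypes was 8.22, with a limma adjusted p of 0.0126. In the cKO bulge pair the other 2 probe sets of H2-Ea differed by -0.01 and 0.64, so the bulge gain was seen by 1 of 3. Without the HG pairs, or without the bulge pairs, neither gene was called.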

How the data were processed

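Gene expression was measured on 12 Affymetrix arrays, 1 per genotype, fraction and set. Per the labels' protocols, RNA was extracted with Trizol and biotinylated cRNA was made from 2 µg. The deposited values are MAS5 intensity on a linear scale, and the submitters' processing notes name MAS5 with no version. By their values, the authors had set every array's trimmed mean (2% cut from either tail) to 500. Detection calls were not used here, and the small number of arrays limits precision.

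Of 45101 probe sets, 64 controls were left out, and 34945 of the rest had 1 gene symbol, 932 several and 9160 none. The probe set with the highest mean represented a gene, which gave 18193 genes. Signals were floored at the pooled lower quartile (20.7) and log2 transformed. Genes were tested where 2 or more arrays of a fit exceeded the pooled median (84.7), with limma 3.58.1 in R 4.3.3 (eBayes with trend, two-sided, Benjamini-Hochberg, threshold 0.05), which was tested on simulated data. Fraction was the block in the set test. A fraction's pair was also tested against the other pairs, and cKO against Het on 12 arrays. Arrays of a set are not known to be separate mice, so p-values measure the spread between arrays.

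Named genes were those called and changed alike in all 3 fractions, then those at least 2-fold in all 3 by their smallest difference, up to 12 a direction; 8 genes of a fraction's own a direction; the 4 largest of each other test; 8 fixed genes; and members of lists. The text gives a choice of these. Krtap genes and other genes beyond the rule were picked after their values were seen. The members, lists and tests were chosen with earlier results of these data known. Alternatives changed the scaling, floor, filter, probe sets, variance model, arrays and fold.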

Additional observations from a re-analysis of the deposited data

Results flagged for a closer look

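In the test of TK against the other fractions, the set difference of 4 genes was larger in TK than the mean of HG and bulge, by 4.57 for Nr4a1, 4.25 for Atf3, 3.96 for Tmc8 and 3.81 for Ptgs2 (log2). That of 4 casein genes was lower there, by -6.42 for Csn2, -5.69 for Csn1s2b, -5.68 for Csn1s2a and -5.32 for Csn1s1. These 8 passed a limma test with 1 residual degree of freedom that called 0 genes with the spread of all 12 arrays. The set difference in cKO exceeded that in Het by 8.22 for H2-Ea and by 5.01 for Zfp874a, both past the threshold of the 12-array limma test. No cause was tested for any of these.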

How the results depend on the processing

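Of the 13 genes of the set test, with 7 higher, the count was 24 with quantile normalization (10 higher, all 13 among them), 3 with the floor at the pooled median, 0 without the filter, 1 without a variance trend, 6 with 12 arrays, 1 with no fraction block, and 6 to 603 leaving out a fraction's pair. Without the HG pair it was 84. Without the filter 1556 genes had an unadjusted limma p under 0.05. The count of 305 for TK against the others was 154 with quantile normalization, 67 with the floor at the pooled median, 20 with the mean of all probe sets, and 0 without the filter, without a trend or with 12 arrays. The HG test called 5 with a stricter filter (the pooled 75th percentile). The 2 genes of the genotype difference became 1 without a floor or trend, 0 without the filter, with the stricter filter or with no fraction block, and 0 to 1 leaving out a fraction. The 40 genes shared at 2-fold were 20 with the higher floor, 9 with the stricter filter, 13 at 3-fold and 150 at 1.5-fold, and 29 (16 higher) with quantile normalization. Those limited to HG (231) were 58 with the stricter filter, 57 at 3-fold and 1067 at 1.5-fold; to bulge (388), 75, 160 and 1080; to TK (278), 117, 79 and 1035, and 233 (93 higher against 63) with quantile normalization. The cause of these changes was not tested. No result changed direction past a threshold. Tests of a single fraction could not be run with a pair left out or without the block. Counts of list calls, and of 2-fold genes in the other fractions alone (137, 99 and 173 without HG, bulge and TK), were alternatives chosen after seeing the data. No paired analysis by replicate number was possible because each group has 1 array; pairing was by fraction.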

Other observations

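Genes of energy and protein synthesis differed little in size, and unevenly between fractions. Of 26 mitochondrial respiratory chain genes tested, 15 were higher in all 3 fractions, where 14.2% of all tested genes were, and none was called. Their medians were 0.40 in HG, 0.02 in bulge and 0.39 in TK (0.28, -0.01 and 0.20 with quantile normalization). The 19 cytosolic ribosomal protein genes had medians of 0.49 in HG, -0.40 in bulge and 0.06 in TK, with no gene of one sign throughout; with quantile normalization the medians were 0.01, -0.01 and -0.00. Of 19 circadian clock genes 8 were lower in all 3 fractions, where 21.4% of all tested genes were. None was called, and the medians were -0.18, -0.33 and -0.25.

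Stem cell genes of the bulge had medians of 0.25 in HG, 0.18 in bulge and -0.45 in TK over 23 genes, with none called in the set test. TGF-beta receptors and Smads, 16 genes, had medians of -0.25, -0.05 and -0.15 (0.03 in HG with the mean of all probe sets), and 17 TGF-beta response genes of -0.15, -0.08 and 0.04 (-0.04 in TK with the mean of all probe sets), again with none called.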
